A study of Triticum aestivum with 4 samples.

Results

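Transcripts for potassium and sodium transporters and for the proton pumps that power them were compared between wheat roots grown from hypergravity-treated seeds and roots grown from untreated seeds. The set held 220 of the 91482 assembled transcripts that had a value in each library. Members were chosen by the text of their best protein hit, which had to name a potassium transporter, a potassium channel, an HKT cation transporter, a sodium/hydrogen exchanger, a cation/H(+) antiporter, a plasma membrane ATPase, a V-type proton ATPase or a pyrophosphate-energized proton pump. The hit also had to come from the genera Aegilops, Triticum, Hordeum or Brachypodium. In practice 201 hits were to Aegilops tauschii, the donor of the D subgenome of bread wheat, and 19 were to the model grass Brachypodium distachyon. No fold change or p-value is part of this rule, but the set was proposed with earlier results of these data known. It holds only transcripts with a value in each library, which left out 26 others with the same descriptions and only 1 FPKM per group, 25 of them under 4 FPKM in both groups. The 220 transcripts lay in 110 assembled genes and matched 94 proteins, and 148 of them carried a Pfam protein domain. Of the members, 167 lay in 57 assembled genes with more than 1 member, so transcripts of 1 gene share reads and are not independent measurements.

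The plants were bread wheat (Triticum aestivum) of the genotype UAS-375, and RNA was taken from roots at an age of 45 days. In the hypergravity group, seeds were exposed to a force of 10 g for 12 h and then sown. In the control group, seeds had received no treatment. Both groups then grew in tall pipes in a greenhouse, and each gave 2 libraries of messenger RNA. Nothing in the labels ties a library to its own plant or pool of plants, so each p-value measures only the spread between these libraries.

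Plant roots take up potassium through high-affinity transporters of the HAK/KUP family and through Shaker-type channels such as AKT1, and they release it to the xylem through outward channels. Sodium is moved by HKT transporters and by sodium/hydrogen exchangers. The plasma membrane H+-ATPase sets up the proton gradient and voltage that drive uptake at the cell surface, while the V-type H+-ATPase and the H+-pyrophosphatase acidify the vacuole and other inner compartments.

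The libraries held 46604327 and 47850533 counts in hypergravity and 49424285 and 53346750 in control, and the lowest count in any library was 9. Levels are given below as normalized counts, the count divided by the library's size factor, with library a before library b of each group. Levels of different genes are set side by side only as normalized counts per kilobase of transcript. Changes are log2 fold changes ± SE of hypergravity over control on the scale of log2(normalized count + 1), which understates changes of low transcripts, and a transcript was called at an adjusted p under 0.05 (limma, Benjamini-Hochberg over all 91482 transcripts, 2 residual degrees of freedom). The endodermal regulators SHORT-ROOT (1 transcript) and SCARECROW (5 transcripts) were present, whereas no transcript matched the casparian strip, Rubisco small subunit or photosystem I texts. Summed chlorophyll a-b binding transcripts were at 142 and 106 normalized counts in hypergravity and 107 and 67.6 in control. A pair of photosystem II transcripts, from the leaf list, summed to 1599.6 and 1386 in hypergravity and 1066 and 1083 in control, and both were called higher. The SCARECROW transcripts summed to 323 and 226 in hypergravity and 283 and 487 in control, and 1 of them was called lower. Their part in the results below was not tested.

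Of the 220 members, 38 were higher and 30 lower in hypergravity, and 152 were not called. The called share was 30.9%, beside 25.5% of all transcripts (13.5% higher and 11.9% lower) and 26.2% of the 59378 transcripts with best hits in the same grasses. The median log2 fold change was 0.01 for members and -0.01 for all transcripts, and members ranged from -1.75 to 2.20. Libraries of the groups did not overlap in 63.9% of all transcripts. The largest changes named per family below were picked among called members without overlap, so there the lack of overlap was set by the choice. With counts summed within assembled genes, 18 of the 110 rose and 14 fell (29.1%), beside 26.6% of all 47167 genes. In bulk roots, a lower value can mean fewer cells of a type or less RNA per cell, and these cannot be told apart. Of the 68 calls, 34 were made in each of 11 alternative fits and no call changed sign. In a fit without a variance trend, 19.5% of members were called, beside 17.3% of all transcripts. Without hypergravity b or control b, fewer calls were made among members and among all transcripts.

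**Figure D1:**
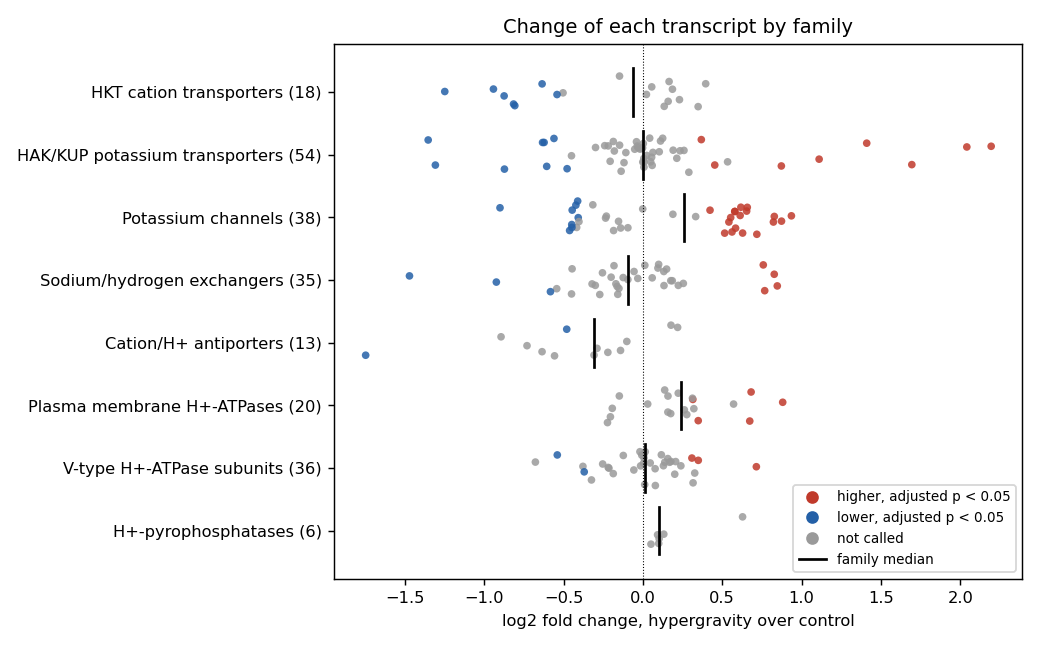
Log2 fold change of each of the 220 transcripts, hypergravity over control, in 8 families, with the number of members in brackets. Each point is 1 transcript, red where called higher, blue where called lower and grey where not called by limma, and the black bar is the family median. Potassium channels split into a higher and a lower cloud with a median of 0.26, called HKT members lie only below 0, and called plasma membrane H+-ATPase members only above 0.

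The plot of changes by family shows how the calls were spread over the families. Potassium channels had 18 members higher, 8 lower and 12 not called (68.4% called). HKT transporters had 0 higher, 7 lower and 11 not called (38.9%), and plasma membrane H+-ATPases had 5 higher, 0 lower and 15 not called (25%). HAK/KUP potassium transporters were called in both directions, with 8 higher, 8 lower and 38 not called (29.6%). Sodium/hydrogen exchangers had 4 higher, 3 lower and 28 not called (20%), and cation/H+ antiporters had 0 higher, 2 lower and 11 not called (15.4%). V-type H+-ATPase subunits had 3 higher, 2 lower and 31 not called (13.9%), and none of the 6 H+-pyrophosphatase transcripts was called, 1 of them having an unadjusted p under 0.05. No test of the differences between families was made. Some of these counts moved when 1 library was left out. Without hypergravity b there were 4 HKT, 12 channel, 1 antiporter and 1 V-type calls, and without control b there were 12 channel, 1 antiporter, 3 V-type and 1 H+-pyrophosphatase calls. Without control a there were 5 antiporter and 3 plasma membrane H+-ATPase calls.

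HKT transporters carry sodium, some of them together with potassium. The called members fell in hypergravity and came from genes with HKT8-like, HKT6 and HKT7 hits, while members with HKT1-like, HKT4-like and HKT9 hits were not called. The rice protein HKT8 retrieves sodium from the xylem in roots. The HKT8-like transcript TRINITY_DN40152_c0_g1_i1 had normalized counts of 717 and 726 in hypergravity, against 1198 and 1349 in control. Both hypergravity libraries lay well below both control libraries. It changed by -0.82 ± 0.10 on the log2 scale (adjusted p 0.000272, limma), and the other two members of this gene changed by -0.64 and -0.81. These 3 transcripts had the highest levels of the family, with TRINITY_DN40152_c0_g1_i3 at 381 in hypergravity and 594 in control per kilobase.

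The largest HKT change was of HKT6 (TRINITY_DN32248_c0_g1_i2), a lowly expressed member with 50.1 and 53.5 in hypergravity, against 134 and 116 in control. The groups did not overlap, and the change was -1.25 ± 0.20 (adjusted p 0.00158, limma). Its companion isoform changed by -0.88, a call lost without hypergravity b (adjusted p 0.0541, limma) or control a (0.0994). A first HKT7 transcript (TRINITY_DN69803_c0_g1_i1) stood at 25.0 and 25.7 in hypergravity, against 45.4 and 54.5 in control, a change of -0.94 ± 0.25. A second HKT7 transcript (TRINITY_DN12442_c1_g1_i1) stood at 131 and 114 in hypergravity, against 199 and 161 in control, a change of -0.54 ± 0.18 at an adjusted p of 0.0493 (limma). The HKT7 calls rested on single libraries: the first was lost without hypergravity a (0.0589), hypergravity b (0.0636) or control b (0.127). The second was lost without hypergravity a (0.0576), hypergravity b (0.197) or control a (0.302), all as adjusted p of limma. Transcripts with HKT1-like hits, a type that takes up sodium into potassium-starved rice roots, had values such as 347 and 435 in hypergravity, against 364 and 320.3 in control (TRINITY_DN3731_c0_g2_i4), and the groups overlapped. Summed over the 18 HKT members, normalized counts were 3688 ± 204 in hypergravity and 4759 ± 92.2 in control (SD, n = 2 libraries each), and the groups did not overlap. Of this sum, the HKT8-like gene held 1613 and 1564 in hypergravity, against 2518 and 2809 in control. The gene TRINITY_DN3731_c0_g2, with HKT1-like and HKT9 hits, held 1275 and 1557 in hypergravity, against 1349 and 1193 in control. Its groups overlapped, so the family sum does not describe each HKT gene.

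HAK/KUP transporters are proton-coupled potassium carriers, and the largest rise and one of the largest falls of all members were here. The strongest rise was of potassium transporter 5-like (TRINITY_DN6900_c0_g1), whose rice counterpart HAK5 takes up potassium at low external supply. Its transcript TRINITY_DN6900_c0_g1_i1 had 1661 and 1899.8 in hypergravity, against 412 and 364 in control. Each hypergravity library held more than any control library by a wide margin. The log2 change was 2.20 ± 0.11 (adjusted p 2.01e-06, limma). The other three isoforms changed by 2.04, 1.69 and 1.41. The summed gene stood at 4762 and 5329 in hypergravity, against 1401 and 1263 in control, a change of 1.92 ± 0.10. Measured per kilobase, TRINITY_DN6900_c0_g1_i1 averaged 648 in hypergravity and 141 in control, which was below potassium transporter 1 in hypergravity roots and further below it in control roots. A further potassium transporter 5-like gene (TRINITY_DN54700_c0_g2_i5) was low, with 64.7 and 58.7 in hypergravity, against 40.4 and 44.2 in control, and was not called.

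Potassium transporter 4 (TRINITY_DN13400_c0_g1_i2) fell most in the family. It had 355 and 436 in hypergravity, against 989 and 1024 in control, with no overlap, and changed by -1.35 ± 0.12 (adjusted p 3.82e-05, limma). The other isoform changed by -1.31. Of the HAK/KUP genes that fell, potassium transporter 9 had the highest level, with TRINITY_DN8401_c0_g1_i7 at 1108 in hypergravity and 1639 in control per kilobase. As normalized counts, TRINITY_DN8401_c0_g1_i3 had 3296 and 3275 in hypergravity, against 4593 and 5454 in control. The hypergravity libraries were almost equal and lay below both control libraries, which differed more from each other. Its 3 transcripts changed by -0.62, -0.61 and -0.56, with adjusted p of 0.0018, 0.00172 and 0.00214 (limma).

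Smaller calls filled the rest of the family. Potassium transporter 19-like (TRINITY_DN78839_c0_g1_i6) had 122 and 138 in hypergravity, against 65.1 and 54.5 in control, a rise of 1.11 ± 0.20. Potassium transporter 17 (TRINITY_DN32469_c0_g1_i2) had 185 and 223 in hypergravity, against 106 and 115 in control, a rise of 0.87 ± 0.17. Both transcripts had low counts and non-overlapping groups. The pair of potassium transporter 25 members rose by 0.37 and 0.45, and the pair of potassium transporter 13 isoforms fell by 0.48 and 0.63. Potassium transporter 24-like (TRINITY_DN14412_c0_g1_i1) had 128 and 86.5 in hypergravity, against 167 and 225 in control, a change of -0.87 ± 0.23. That call was lost without hypergravity b (adjusted p 0.11, limma) or control b (0.0634). The call of TRINITY_DN8943_c1_g1_i5 was lost without the same libraries (0.0554 and 0.173). Of the potassium transporter 13 pair, the call of TRINITY_DN8232_c0_g1_i2 (the fall of 0.48) was lost without any 1 of the 4 libraries (0.0671, 0.0736, 0.0628 and 0.145 without hypergravity a, hypergravity b, control a and control b), and that of TRINITY_DN8232_c0_g1_i3 was kept. Potassium transporters 17, 25, 13 and 9, and the AKT1, AKT2, KOR2-like and second KAT1-like channels below, are described so that assembled genes with a called member are covered, a choice made after their values were seen.

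The 3 transcripts with the highest HAK/KUP levels per kilobase were not called. Potassium transporter 1 (TRINITY_DN8232_c0_g2_i6), a main uptake carrier of rice roots, had 3239 and 3732 in hypergravity, against 3464 and 3457 in control, and the libraries of the groups overlapped. Its change was 0.01 ± 0.09, and the shorter potassium transporter 1-like transcript TRINITY_DN22405_c0_g1_i7 changed by 0.04 ± 0.09. Per kilobase, the highest of these was TRINITY_DN22405_c0_g1_i7 at 1749 in hypergravity and 1701 in control. Members with hits to potassium transporters 7, 10, 11, 14, 15 and 18 were not called in either direction, although potassium transporter 15 (TRINITY_DN8634_c0_g1_i2, 0.23 ± 0.11) was called without hypergravity a (adjusted p 0.0329, limma). Summed over 54 members the family held 50841 and 54686 in hypergravity, against 53656 and 55565 in control, and the groups overlapped.

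**Figure D2:**
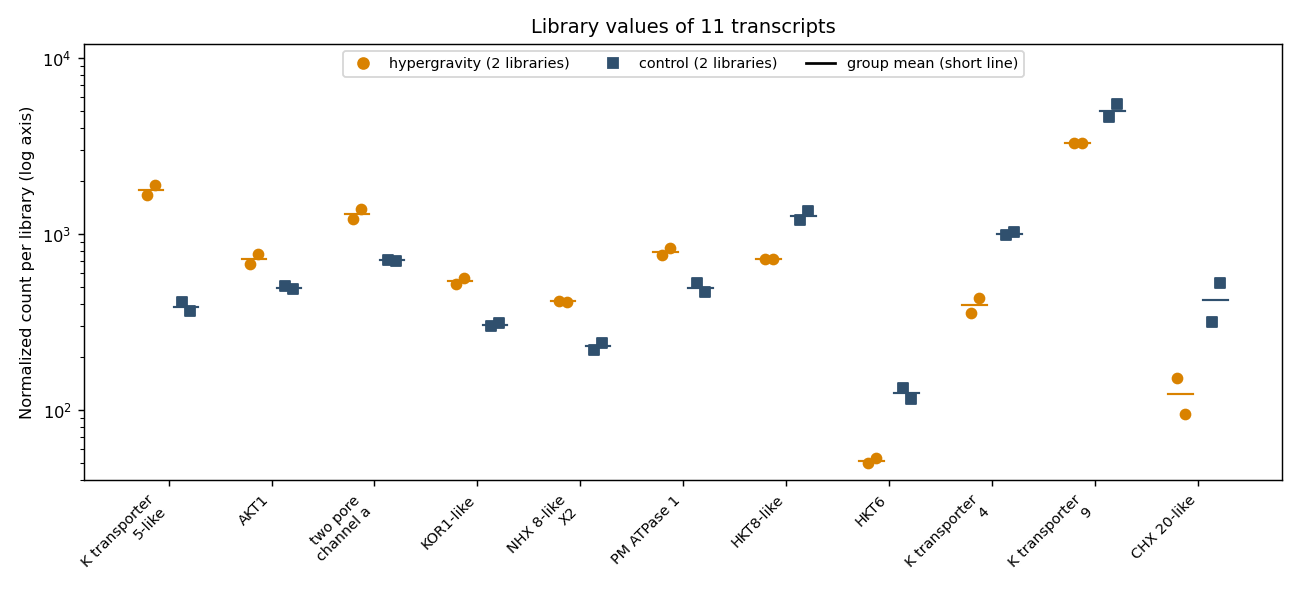
Normalized count in each of the 4 libraries (log axis) for 11 transcripts, hypergravity as orange circles and control as blue squares, each group with its mean as a short line. The first 6 transcripts, among them potassium transporter 5-like and AKT1, are higher in both hypergravity libraries, and the other 5 are lower. The groups overlap in none of them, but the transcripts were picked among called members without overlap.

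Potassium channels let potassium flow along its electrochemical gradient. As summed genes, 9 of 15 channel genes were called, 6 higher and 3 lower (60%, beside 26.6% of all assembled genes). No test of this difference was made. AKT1, the inward channel for potassium uptake in roots, was higher in all 6 of its assembled isoforms (TRINITY_DN5645_c0_g1). The highest-count isoform, TRINITY_DN5645_c0_g1_i12, had 674 and 769 in hypergravity, against 504 and 485 in control. Its change was 0.54 ± 0.11 (adjusted p 0.00536, limma), the isoforms ranged from 0.54 to 0.66, and the summed gene changed by 0.59 ± 0.09. The gene's summed counts were 2838 and 3151 in hypergravity, against 1993 and 1986 in control, with no overlap. The 6 isoforms share reads, so their calls stand for 1 gene. The call of TRINITY_DN5645_c0_g1_i11 was lost without hypergravity a (adjusted p 0.0544, limma), hypergravity b (0.0708) or control b (0.0858).

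An AKT2 channel moved the other way. AKT2 of Arabidopsis is a weakly rectifying channel of the phloem. TRINITY_DN4850_c0_g2_i1, with an AKT2 hit, had 227 and 267 in hypergravity, against 341 and 338 in control, and changed by -0.46 ± 0.13. The groups did not overlap. The call depended on single libraries, and missed the threshold without hypergravity a (adjusted p 0.129, limma), control a (0.0847) or control b (0.0852). A further 2 short AKT2 transcripts were not called.

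Outward-rectifying KOR channels have an Arabidopsis relative, SKOR, that loads potassium into the xylem, and 2 KOR genes with members were higher. KOR1-like (TRINITY_DN3096_c0_g1) had 3 of 4 isoforms called, led by TRINITY_DN3096_c0_g1_i7 with 519 and 564 in hypergravity, against 299 and 313 in control. The groups were clearly apart, and the change was 0.82 ± 0.11 (adjusted p 0.000625, limma). KOR2-like (TRINITY_DN18294_c0_g1) had 4 of 8 isoforms called, all among its 7 members, with TRINITY_DN18294_c0_g1_i15 at 185 and 198 in hypergravity, against 131 and 118 in control, a change of 0.61 ± 0.16. That KOR2-like call was lost without hypergravity b or control b, with log2 fold changes of 0.56 and 0.54, and so were the gene's other calls. Those of TRINITY_DN18294_c0_g1_i11 and TRINITY_DN18294_c0_g1_i2 were also lost without hypergravity a, and without a variance trend (adjusted p 0.0551 and 0.055, limma). The KOR1-like calls of TRINITY_DN3096_c0_g1_i2 and TRINITY_DN3096_c0_g1_i3 were lost without hypergravity b (0.0758 and 0.059), and that of TRINITY_DN3096_c0_g1_i3 also without hypergravity a (0.123) or control a (0.144). As summed genes, KOR1-like changed by 0.57 ± 0.10 and KOR2-like by 0.47 ± 0.11. Outside the members, the 4 transcripts of TRINITY_DN95293_c0_g1, with KOR1 or SKOR-like hits in other plants, changed by -0.23 to -0.31 and were not called. TRINITY_DN14945_c0_g1_i2, also outside the members and with a SKOR-like hit, was called higher. It had 309 and 289 in hypergravity, against 83.8 and 88.3 in control, a change of 1.78 ± 0.16 (adjusted p 3.49e-05, limma). TRINITY_DN93722_c0_g1_i2, with a SKOR hit in another plant, changed by 0.11 ± 0.27 and was not called. A KOR1-like transcript with no library values, TRINITY_DN56441_c0_g2_i1, was at 0.82 FPKM in hypergravity and 0.95 FPKM in control in the authors' deposited table.

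The vacuolar two-pore potassium channel a (TRINITY_DN22985_c0_g1) was higher in all 3 of its isoforms. Its transcript TRINITY_DN22985_c0_g1_i12 had 1215 and 1393 in hypergravity, against 714 and 706 in control. The control libraries were nearly equal and both lay below the hypergravity libraries. The isoforms changed by 0.87, 0.83 and 0.72, with adjusted p of 0.000207, 0.000335 and 0.000843 (limma). Members with hits to two-pore channel c or two-pore channel 2 were not called.

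A pair of KAT1-like transcripts, named for an inward channel of Arabidopsis guard cells, was called higher. TRINITY_DN3635_c1_g1_i6 had 78.2 and 63.8 in hypergravity, against 40.4 and 32.9 in control, a change of 0.94 ± 0.24, and TRINITY_DN7949_c0_g1_i12 changed by 0.42 ± 0.13. TRINITY_DN3635_c1_g1_i6 missed the threshold without hypergravity a (adjusted p 0.0939, limma) or control b (0.0781). TRINITY_DN7949_c0_g1_i12 missed it without any 1 of the 4 libraries (0.112, 0.133, 0.18 and 0.116 without hypergravity a, hypergravity b, control a and control b).

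The regulatory beta subunit of voltage-gated potassium channels, an aldo/keto reductase relative, had the highest channel-family levels. TRINITY_DN6835_c0_g1_i4 stood at 1222 in hypergravity and 1434 in control per kilobase and was not called, although its groups did not overlap. A second beta-subunit gene, TRINITY_DN6835_c0_g2_i3, had 379.6 and 311 in hypergravity, against 509 and 812 in control. Control b stood far above control a, so the change of -0.90 ± 0.20 (adjusted p 0.00775, limma) has a wide spread between libraries behind it. Over the 38 channel members, summed counts were 15678 ± 165 in hypergravity and 14312 ± 624 in control (SD, n = 2 libraries each), without overlap. Of this sum, two-pore channel a held 3313 and 3823 in hypergravity, against 2038 and 2015 in control. As summed genes 6 channel genes rose and 3 fell, so the family sum does not describe each channel gene.

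**Figure D3:**
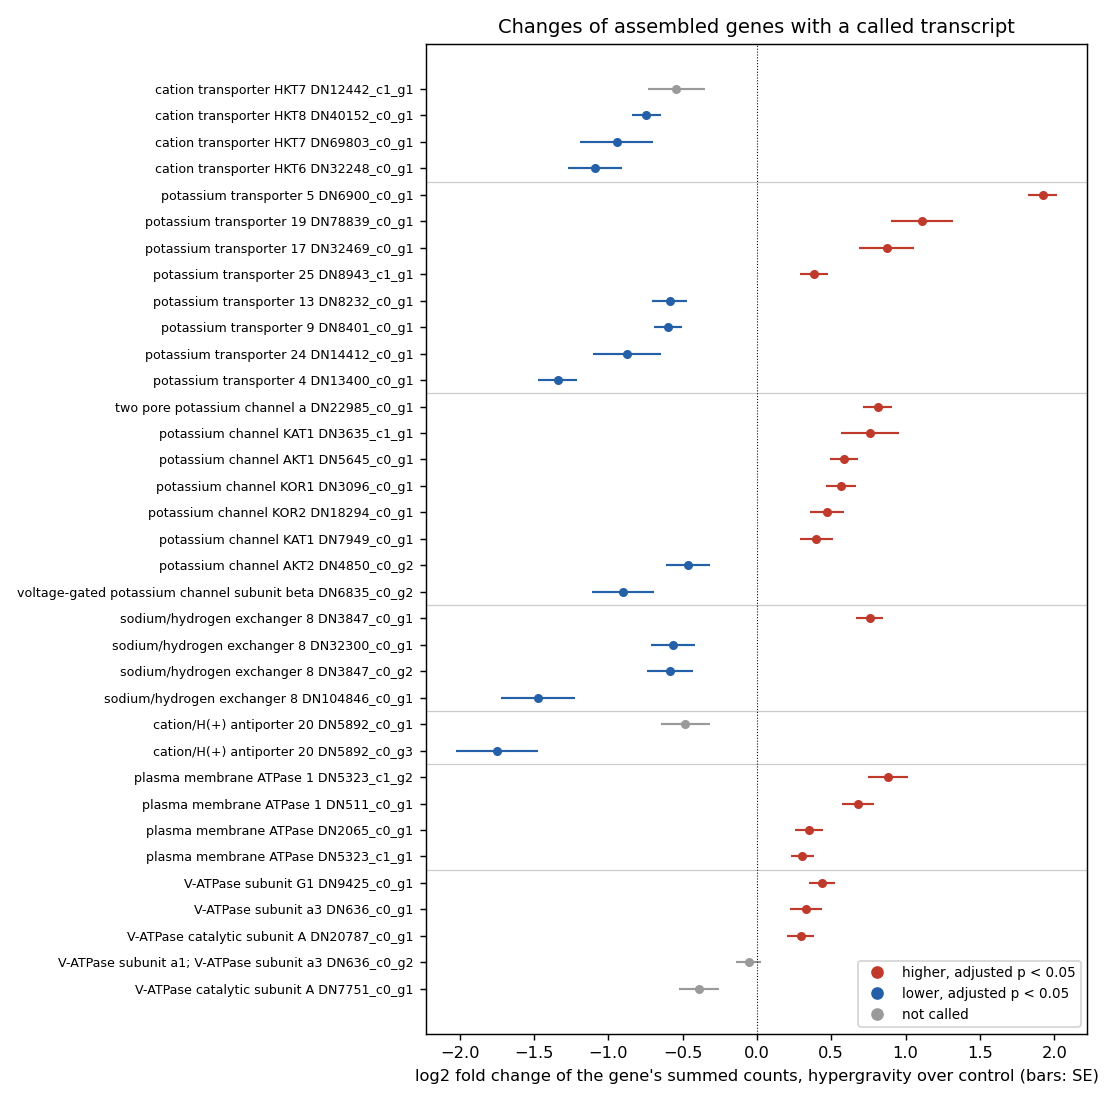
Log2 fold change (point) and SE (bar) of the summed counts of 35 of the 36 assembled genes with a called member, grouped by family from HKT at the top to V-type ATPase subunits at the bottom, with names shortened. Red genes were called higher, blue genes lower and grey genes not called by limma at the gene level. The drawn HKT and cation/H(+) antiporter genes all lie below 0, the drawn plasma membrane ATPase genes all lie above 0, and the other families lie on both sides. Genes without a called member are not drawn, so each side follows from the calls. The sum drawn for subunit G1 (TRINITY_DN9425_c0_g1) includes transcripts of that gene with E3 ubiquitin ligase hits. Some undrawn HKT, antiporter and plasma membrane ATPase genes lie on the other side of 0.

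Sodium/hydrogen exchangers swap protons for sodium or potassium across the plasma membrane, the vacuole or endosomes. Members with hits to exchanger 8-like, a relative of the plasma membrane exchanger SOS1 of Arabidopsis, gave all 7 calls and were called in both directions. TRINITY_DN3847_c0_g1_i24 had 415 and 414 in hypergravity, against 221 and 239.6 in control, and the other three members of the gene also rose. The groups were well apart, with changes of 0.76 to 0.85 over the 4 members and an adjusted p of 0.000809 for the first (limma). The lower members were TRINITY_DN104846_c0_g1_i1 with 26.1 and 31.9 in hypergravity, against 72.0 and 93.0 in control, a change of -1.47 ± 0.25 in a short transcript of low counts. TRINITY_DN32300_c0_g1_i2 had 44.8 and 40.2 in hypergravity, against 75.9 and 87.4 in control, a change of -0.92 ± 0.22. TRINITY_DN3847_c0_g2_i1 had 178 and 166 in hypergravity, against 252 and 264 in control, a change of -0.58 ± 0.14. The remaining pair of isoforms of TRINITY_DN3847_c0_g1, with exchanger 7-like hits in another plant and so not members, was called higher at 0.66 and 0.63. None of the 4 members of TRINITY_DN3847_c0_g1 carried an annotated exchanger domain. The call of TRINITY_DN32300_c0_g1_i2 was lost without hypergravity b (adjusted p 0.0612, limma) or control b (0.0741), and that of TRINITY_DN3847_c0_g2_i1 without the same libraries (0.0616 and 0.0666).

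The exchangers with the highest levels were not called. Exchanger 6-like, of an endosomal type in Arabidopsis, led with TRINITY_DN3761_c0_g1_i20 at 1809 in hypergravity and 1650.2 in control per kilobase, or 4279.6 and 5046 in hypergravity, against 4541 and 3964 in control as normalized counts. The groups overlapped, and its change was 0.13 ± 0.11. Of this gene's isoforms outside the members, TRINITY_DN3761_c0_g1_i15 was called higher (0.43 ± 0.11, adjusted p 0.02, limma) and TRINITY_DN3761_c0_g1_i8 was not called (0.29 ± 0.14). The summed gene changed by 0.13 ± 0.09 and was not called. The vacuolar types exchanger 1-like (TRINITY_DN10644_c0_g1_i2, -0.18 ± 0.11) and exchanger 2-like (TRINITY_DN1842_c0_g1_i5, -0.30 ± 0.10, and TRINITY_DN3532_c0_g1_i4, 0.22 ± 0.10) were not called either. TRINITY_DN3809_c0_g2_i7, an exchanger 8-like transcript with the cyclic nucleotide-binding domain of the SOS1 type, had 1620.5 and 1802 in hypergravity, against 2029 and 2099.6 in control, and its change of -0.27 ± 0.09 missed the threshold (adjusted p 0.055, limma). Without hypergravity b the companion isoform TRINITY_DN3809_c0_g2_i10 was called (0.0356), and without hypergravity a TRINITY_DN3532_c0_g1_i4 was (0.0359).

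Cation/H+ antiporters of the CHX family exchange protons for potassium or sodium, mostly on inner membranes. The largest fall of all 220 members was of a cation/H(+) antiporter 20-like transcript (TRINITY_DN5892_c0_g3_i1), whose Arabidopsis counterpart acts in guard cells. It had 153 and 94.7 in hypergravity, against 317 and 524 in control. The groups did not overlap although the libraries within each group differed widely, and the change was -1.75 ± 0.26 (adjusted p 0.000984, limma). A second cation/H(+) antiporter 20-like gene (TRINITY_DN5892_c0_g1_i2) had 211 and 211 in hypergravity, against 260.3 and 333 in control, a change of -0.48 ± 0.15. That call did not hold without hypergravity a (adjusted p 0.0962, limma), hypergravity b (0.118) or control b (0.371). The antiporter 19 transcript TRINITY_DN5892_c1_g1_i3, with 539 and 474 in hypergravity, against 467 and 629 in control, overlapped between groups, and the antiporter 15-like members were low and not called. The median difference between library a and library b, as an absolute log2 value, was 0.48 within hypergravity and 0.43 within control in this family, beside 0.18 and 0.15 for all members.

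Plasma membrane H+-ATPases export protons from the cell. No member was called lower by limma, and both hypergravity libraries lay above both control libraries in 15 of 20 members and below them in 3. Over all transcripts the groups were apart in this way in 63.9%, with 31.9% higher and 32% lower. The transcripts with the highest levels per kilobase were TRINITY_DN5323_c1_g1_i9 and TRINITY_DN5323_c1_g1_i3, with isoform X2 hits, and TRINITY_DN2065_c0_g1_i1, with an isoform X1 hit. TRINITY_DN5323_c1_g1_i9 had 28480.5 and 29231 in hypergravity, against 23164 and 23248 in control, or 30470.5 in hypergravity and 24505 in control per kilobase. TRINITY_DN2065_c0_g1_i1 had 20203 and 24020.4 in hypergravity, against 17205 and 17403 in control. TRINITY_DN5323_c1_g1_i3 had 25989 and 26922 in hypergravity, against 22021 and 21662 in control. All 3 were higher in both hypergravity libraries, by modest amounts. TRINITY_DN5323_c1_g1_i9 changed by 0.31 ± 0.10 (adjusted p 0.0439), TRINITY_DN2065_c0_g1_i1 by 0.35 ± 0.11 (0.0437) and TRINITY_DN5323_c1_g1_i3, which was not called, by 0.28 ± 0.10 (0.0685, all limma).

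These abundant calls were close to the threshold. TRINITY_DN5323_c1_g1_i9 was not called without control a (adjusted p 0.414, limma) or control b (0.44), with log2 fold changes of 0.31 and 0.32. TRINITY_DN2065_c0_g1_i1 was not called without hypergravity b (0.0757), control a (0.315) or control b (0.318). TRINITY_DN5323_c1_g1_i3 was called without hypergravity a (0.0144) or hypergravity b (0.0496).

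The larger relative rises were in less abundant transcripts with plasma membrane ATPase 1 hits. TRINITY_DN5323_c1_g2_i1 had 516 and 505 in hypergravity, against 260.3 and 294 in control. TRINITY_DN511_c0_g1_i1 had 758 and 834 in hypergravity, against 526 and 467 in control. In both, each hypergravity library exceeded each control library. Their changes were 0.88 ± 0.12 (adjusted p 0.000542, limma) and 0.68 ± 0.11 (0.00155), and a second TRINITY_DN511_c0_g1 isoform changed by 0.67. The 3 plasma membrane ATPase 1-like transcripts of TRINITY_DN5323_c0_g1 were not called, the most abundant, TRINITY_DN5323_c0_g1_i1, having 3562 and 4081 in hypergravity, against 3511 and 3424 in control. All 6 plasma membrane ATPase-like isoforms of TRINITY_DN647_c1_g1 were higher in both hypergravity libraries, by 0.16 to 0.32, and none was called.

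Summed over 20 members, the plasma membrane H+-ATPases had 96521 and 102505 in hypergravity, against 81435 and 82298 in control. They took 0.199% and 0.208% of all counts in hypergravity, against 0.167% and 0.164% in control. A further 9 transcripts with the same description but hits outside these grasses summed to 51272 and 53695 in hypergravity, against 40595 and 40702 in control. Most of that sum came from a gene that also holds members, TRINITY_DN5323_c1_g1, with 4 isoforms of which 2 are members. Its isoform TRINITY_DN5323_c1_g1_i1 had 34391 and 36474 in hypergravity, against 28194 and 27869 in control. TRINITY_DN5323_c1_g1_i4 had 12781 and 12318 in hypergravity, against 10376 and 10799 in control. Isoforms of 1 gene share reads, and the whole sum of this gene changed by 0.30 ± 0.08 (adjusted p 0.0168, limma). Sums over families are given as values without a test, and an exact permutation of 2 against 2 libraries cannot go below a two-sided p of 0.333.

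**Figure D4:**
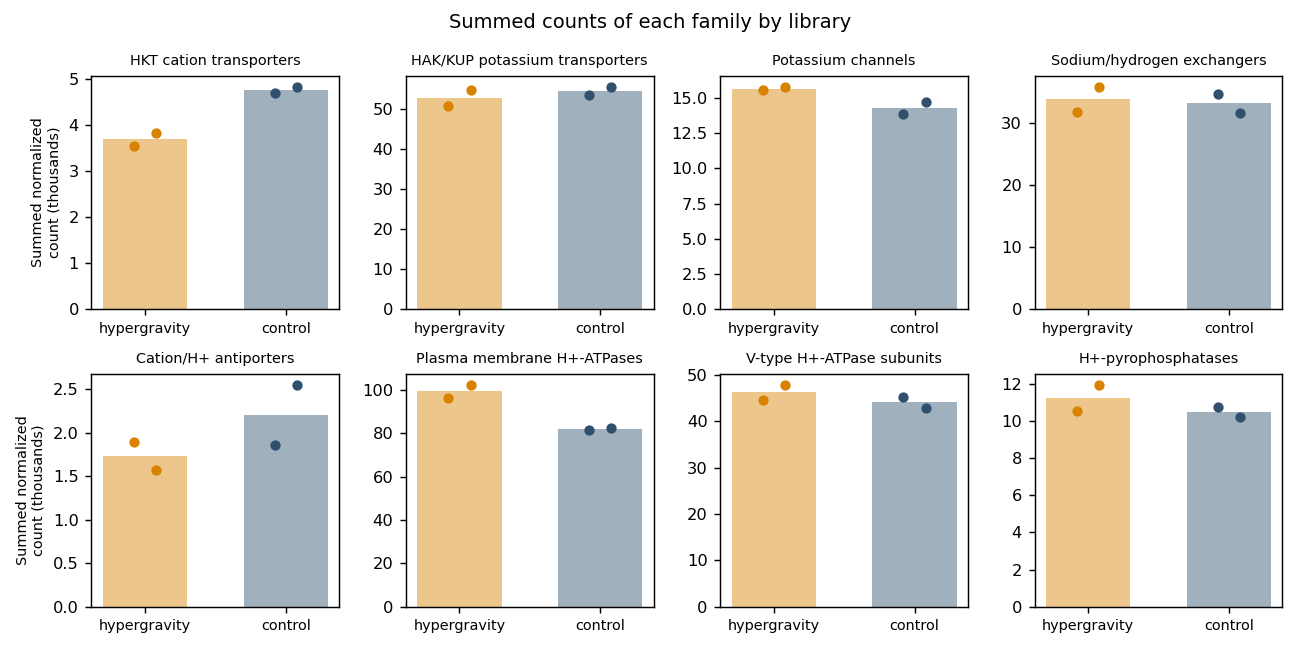
Summed normalized counts of the members of each of the 8 families per library, scaled as the axis title states, 1 panel per family with its own axis from 0. Bars are the mean of 2 libraries and points are the libraries, with hypergravity in orange on the left and control in blue on the right. The groups do not overlap for plasma membrane H+-ATPases and potassium channels (higher in hypergravity) and for HKT transporters (lower), and they overlap in the other 5 families. Each sum is weighted toward the most abundant genes of its family and does not describe every gene.

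The V-type H+-ATPase is built of a cytosolic V1 sector, which splits ATP, and a membrane V0 sector, which moves protons. Most of its subunits were not called. Of 29 V1 members 2 were higher and 1 lower, and of 7 V0 members 1 was higher and 1 lower. The V1 stalk subunit E-like (TRINITY_DN4925_c1_g1_i1) had 4164 and 4256 in hypergravity, against 4192 and 4192 in control, and the regulatory subunit H (TRINITY_DN1384_c0_g1_i1) had 3761 and 4371 in hypergravity, against 4272 and 3824 in control. Groups overlapped in both, with changes of 0.01 ± 0.08 and 0.00 ± 0.10. The V0 subunits c''2 (TRINITY_DN18864_c0_g1_i2, a proteolipid of the rotating ring) and d (TRINITY_DN975_c0_g1_i5) changed by -0.01 ± 0.09 and 0.01 ± 0.09. The nucleotide-binding subunit B1 (TRINITY_DN4411_c0_g4_i1) changed by -0.02 ± 0.09, and subunit F (TRINITY_DN17922_c0_g2_i1) by 0.08 ± 0.09. None of the 10 subunit B transcripts was called, and none had an unadjusted p under 0.05.

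Among members, the V-type calls were in subunits A, G1 and a3, and 2 of these names were called in both directions in different genes. The catalytic subunit A transcript TRINITY_DN20787_c0_g1_i4 had 3719.6 and 4015 in hypergravity, against 3322 and 2931 in control, and rose by 0.31 ± 0.10 (adjusted p 0.0396, limma). A low subunit A transcript, TRINITY_DN7751_c0_g1_i6, had 112 and 119 in hypergravity, against 187 and 151 in control, and changed by -0.54 ± 0.18. In both of these transcripts the groups did not overlap. TRINITY_DN7751_c0_g1_i16 and TRINITY_DN7751_c0_g1_i18, of the same gene but with hits in other plants and so not members, were called lower at -0.51 and -0.46. Of the 4 members of TRINITY_DN7751_c0_g1, 1 was called. Its whole sum changed by -0.39 ± 0.13 and was not called (adjusted p 0.0548, limma). For the proton-translocating subunit a3-like, TRINITY_DN636_c0_g1_i2 had 740.4 and 872 in hypergravity, against 652 and 611 in control, a change of 0.35 ± 0.11. The short transcript TRINITY_DN636_c0_g2_i3 had 863 and 852 in hypergravity, against 1011 and 1217 in control, a change of -0.37 ± 0.11, while the abundant subunit a1 transcript TRINITY_DN636_c0_g2_i4 changed by 0.05 ± 0.10. The whole sum of TRINITY_DN636_c0_g2 changed by -0.05 ± 0.08.

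The 4 member calls in subunits A and a3 were lost when single libraries were left out. TRINITY_DN20787_c0_g1_i4 was lost without hypergravity b (adjusted p 0.119, limma), control a (0.0566) or control b (0.405). TRINITY_DN7751_c0_g1_i6 was lost without hypergravity a (0.136), hypergravity b (0.101) or control a (0.316). Of the a3-like pair, TRINITY_DN636_c0_g1_i2 was lost without hypergravity b (0.237), control a (0.0601) or control b (0.201), and TRINITY_DN636_c0_g2_i3 without hypergravity a (0.0587), hypergravity b (0.0914) or control b (0.339). In the opposite sense, subunit C (TRINITY_DN12160_c0_g3_i1) was not called with all libraries (-0.68 ± 0.24) but was without control a (0.000196) or hypergravity a (0.0346), and subunit D (TRINITY_DN2886_c0_g2_i2, -0.25 ± 0.14) was called without control a (0.0276).

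Subunit G1 (TRINITY_DN9425_c0_g1_i6), part of a peripheral stalk, had the largest V-type change that was called, 0.71 ± 0.12 (adjusted p 0.00197, limma). It had 545 and 575 in hypergravity, against 369 and 315 in control. It is 1 of 6 transcripts of its assembled gene, the others have best hits to an E3 ubiquitin ligase (UPL3-like), and no V-ATPase domain is annotated on it. The second subunit G1 gene, whose transcript TRINITY_DN9425_c0_g2_i2 carries the domain, had 2344 and 2401 in hypergravity, against 2438 and 2296 in control, and changed by 0.00 ± 0.09. Its level per kilobase was 3509.9 in hypergravity and 3502 in control, the highest among V-type members. Summed, the 36 members held 44585 and 47912 in hypergravity, against 45301 and 42941 in control, and the groups overlapped.

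H+-pyrophosphatases pump protons with the energy of pyrophosphate. The vacuolar type was led by TRINITY_DN6833_c0_g1_i6 with 1790.5 and 1748 in hypergravity, against 1671 and 1561 in control, a change of 0.13 ± 0.09. TRINITY_DN907_c0_g1_i2 had 1789 and 1972 in hypergravity, against 1768 and 1733 in control, a change of 0.10 ± 0.09. Membrane proton pump 3 (TRINITY_DN4465_c0_g1_i4) had 3299 and 4004 in hypergravity, against 3541 and 3252 in control, and its groups overlapped. The largest difference, 0.63 ± 0.22 for TRINITY_DN35412_c0_g1_i1 at 123 and 117 in hypergravity, against 65.1 and 92.1 in control, missed the threshold (adjusted p 0.0585, limma). All 6 had positive log2 fold changes. In 4 of them both hypergravity libraries lay above both control libraries, as in 31.9% of all transcripts. Outside the members, TRINITY_DN5335_c0_g2_i3, with a rice hit, had 474 and 519 in hypergravity, against 293 and 286 in control. It was called higher at 0.78 ± 0.12 (adjusted p 0.000988, limma). TRINITY_DN5335_c0_g2_i2 (0.68 ± 0.23) and TRINITY_DN108447_c0_g1_i1 (-0.19 ± 0.13), also outside the members, were not called.

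Proteins that regulate these carriers, and related ion carriers, were read from the same fit. Of 212 such transcripts in 91 assembled genes, 25 were higher, 17 lower and 170 not called (19.8% called, beside 25.5% of all transcripts), with a median of 0.13. Most calls were in CBL-interacting protein kinases, with 17 of 80 higher and 11 lower, while 0 of 24 calcineurin B-like sensors, their calcium-binding partners, were called (2 had an unadjusted p under 0.05, limma). CBL-interacting protein kinase 23, which activates AKT1 and HAK5 in Arabidopsis, was higher in all 3 transcripts. Its TRINITY_DN5378_c1_g1_i6 had 6941 and 6867 in hypergravity, against 3236 and 3191 in control, and it changed by 1.10 ± 0.08 (adjusted p 1.62e-05, limma). Kinase 24, which activates SOS1 in Arabidopsis, was called in 0 of 3 transcripts, its main transcript TRINITY_DN12567_c1_g1_i1 having 416 and 439 in hypergravity, against 439.8 and 392 in control.

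The other lists held fewer calls. None of 12 14-3-3 proteins, which bind and activate plasma membrane H+-ATPases, was called (limma, 1 with an unadjusted p under 0.05), and none of 11 proton pump-interactors was (1 with an unadjusted p under 0.05). None of 12 K(+) efflux antiporters was called, 4 of them having an unadjusted p under 0.05. Of 4 cation-chloride cotransporter transcripts, all of 1 gene, 3 were higher, and TRINITY_DN14693_c0_g1_i4 had 1982 and 2479 in hypergravity, against 1749 and 1575 in control. Of 21 cyclic nucleotide-gated channel transcripts 2 were higher, of 17 vacuolar cation/proton exchangers 1 was higher, and of 31 chloride channel proteins 2 were higher and 6 lower.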

How the data were processed

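Messenger RNA was measured by stranded paired-end sequencing of 2 hypergravity and 2 control libraries. The authors' deposited table gives 1 value per group and transcript under an FPKM heading, per the file headers, and RSEM is named without a version in the submitters' processing notes. The assembler, the aligner and any filters were not given in the sources used here. Of 147297 transcripts, 91482 carried deposited signal that is the sum of 2 size-factor-normalized counts, per the values in the file. Every sum (100%) split into 1 pair of whole counts (tolerance 1e-09). Nothing tied the recovered libraries to replicate numbers, so they are called a and b. The other 55815 deposited values were FPKM, 1 per group, and were not tested.

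Counts over size factors, as log2 with a pseudocount of 1, were fitted for all 91482 transcripts with limma 3.58.1 in R 4.3.3 (eBayes with a mean-variance trend, prior degrees of freedom 7.91), and p-values were adjusted by Benjamini-Hochberg at a threshold of 0.05. No low-value filter was applied. The fit was also run on simulated counts, drawn independently for each transcript with the same dispersion. Shared reads between isoforms and the share of transcripts called here were not simulated, and no conclusion is drawn from that run. Alternatives were 2 other pseudocounts, a minimum mean of 50, upper-quartile factors, quantile normalization, no trend, each library left out, sums per assembled gene and, added after seeing the data, voom. Median SE of a log2 fold change was 0.177. Isoforms and the wheat subgenomes share reads, which can move counts between near copies. Members and lists were chosen with earlier results of these data known. Transcripts named by rule were, per family, the 3 highest per kilobase, up to 4 called ones with the largest changes and non-overlapping groups, 1 per gene, and the highest of each V-type subunit. Others were named after their values were seen, so that assembled genes with a called member, and leading uncalled members, are described. 1 gene with called members is not reported here. The accessions of the 94 protein hits matched 0 entries of the wheat RefSeq gene table, so no genome positions or sequences are given.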

Additional observations from a re-analysis of the deposited data

How the results depend on the processing

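No paired analysis was possible because the recovered libraries carry no replicate numbers. Of the 68 called members, 34 (22 higher and 12 lower) were called in each of 11 transcript-level alternatives, and no sign changed. Both pseudocounts gave 38 higher and 30 lower, a minimum mean of 50 gave 38 and 29 of 205, quantile normalization 38 and 34, and voom, added after seeing the data, 39 and 28. Upper-quartile factors, which shifted all changes by -0.03, gave 33 higher and 34 lower and left 3 plasma membrane H+-ATPase calls. Without a variance trend 27 members were higher and 16 lower, with 13 calls in potassium channels, 3 in plasma membrane H+-ATPases and 1 each in cation/H+ antiporters and V-type subunits. These calls were 19.5% of members, beside 17.3% of all transcripts. Summed per assembled gene, 18 genes were higher and 14 lower, with 3 HKT, 8 HAK/KUP, 9 channel, 4 exchanger, 1 antiporter and 3 V-type genes called. The count is smaller by construction, since isoforms merge. Among these V-type genes is TRINITY_DN9425_c0_g1, whose other transcripts have E3 ubiquitin ligase hits. Its sum was 2715 and 2733 in hypergravity, of which the subunit G1 transcript held 545 and 575. With 1 library left out, higher calls ranged from 27 to 38 and lower calls from 17 to 31. Calls then ranged from 4 to 6 in HKT, 13 to 18 in HAK/KUP, 12 to 23 in channels, 6 to 8 in exchangers, 1 to 5 in antiporters, 3 to 7 in plasma membrane H+-ATPases, 1 to 6 in V-type subunits and 0 to 1 in H+-pyrophosphatases. Fewer of all transcripts were also called in each of these fits, and the cause of these moves was not tested. In such fits the lone library of a group is assumed to vary like the other group's. Of the 68 called members, 31 lost their call without some 1 library. Transcripts with counts near 9 have the widest counting error.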

Other observations

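A further 78 transcripts had the same descriptions but best hits outside the 4 grass genera, 42 of them V-type subunits. By limma 20 were higher in hypergravity, 5 were lower and 53 were not called, beside 13.5% higher and 11.9% lower of all transcripts. Their median log2 fold change was 0.15. V-type subunits had 10 higher and 3 lower of 42, plasma membrane ATPases 4 higher of 9, and exchangers 3 higher and 1 lower of 7. Channels had 2 higher of 9, H+-pyrophosphatases 1 higher of 3, antiporters 1 lower of 3, and HAK/KUP transporters 0 higher and 0 lower of 5. No HKT description was among them. Whether these transcripts came from wheat was not tested.

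Another 26 transcripts with the members' descriptions held only 1 FPKM per group in the authors' deposited table, without replicates. The hypergravity value was above the control value in 11 and below it in 15, and both were under 4 FPKM in 25. The exception was a V-type catalytic subunit A transcript (TRINITY_DN11294_c0_g3_i3), listed at 48.07 FPKM in hypergravity and 29.2 FPKM in control in the authors' deposited table. A pair of them was listed at 0 in control, a potassium transporter 17 (TRINITY_DN32469_c0_g1_i1) at 1.19 FPKM in hypergravity and a subunit A transcript (TRINITY_DN20787_c0_g1_i1) at 1.22 FPKM in hypergravity.

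In CBL-interacting protein kinases outside kinase 23, the largest rise was of kinase 15-like (TRINITY_DN6204_c0_g1_i4), which had 527 and 609 in hypergravity, against 143 and 140.0 in control, a change of 1.99 ± 0.13. Kinase 9 was higher in 5 of 6 transcripts, with TRINITY_DN1466_c0_g1_i11 at 4826 and 5129.9 in hypergravity, against 1858 and 1744 in control. Kinase 4-like (TRINITY_DN1725_c3_g1_i2) had 142 and 108 in hypergravity, against 250.5 and 375 in control, and changed by -1.30 ± 0.21 (adjusted p 0.00158, limma).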
